A study of Mus musculus with 42 samples.

Results

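The transcripts of 9 amino acid transporters were followed across RNA-seq libraries of mouse bone-marrow-derived macrophages (BMDM). The 9 genes were chosen by name, with earlier results of these data known. They were Slc3a2, Slc7a5, Slc7a8, Slc7a7, Slc1a4, Slc1a5, Slc38a1, Slc43a2 and Slc15a3, and each matched 1 row of a count table that holds 37310 genes. The table held 42 libraries in 14 groups of 3. BMDM, which are bone marrow cells differentiated in medium conditioned by L929 fibroblasts, came from mice labelled WT or KO. The KO label stands for a myeloid deletion of Irf5, made by crossing mice with a floxed Irf5 gene to LysM-Cre mice, and the WT animals were littermates. Within each label the cells were Control at 0 h, or Control, palmitate or LPS (bacterial lipopolysaccharide) for 2 h or 24 h. Palmitate, a saturated fatty acid, was dissolved in ethanol and albumin, and whether Control cells received that carrier is not stated. Cre is expressed from the Lyz2 locus, so deletion depends on each cell having expressed Lyz2. The labels do not say whether the 3 libraries of a group came from separate animals or cultures, so p-values measure only the spread between these libraries, which may be technical.

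Amino acids cross membranes through carriers of the SLC families. SLC3A2 (4F2hc, CD98) is a heavy chain that brings light chains such as SLC7A5 (LAT1), SLC7A8 (LAT2) and SLC7A7 (y+LAT1) to the cell surface, where they exchange large neutral or cationic amino acids. SLC1A4 and SLC1A5 are sodium-dependent exchangers of small neutral amino acids, glutamine among them for SLC1A5, SLC38A1 takes up glutamine with sodium, SLC43A2 (LAT4) lets branched-chain amino acids and methionine through without exchange, and SLC15A3 (PHT2) carries histidine and small peptides across the lysosomal membrane. Activated macrophages draw on such carriers for protein synthesis and for signalling through mTORC1.

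Total counts per library lay between 2848793 and 7743442, with a median of 5625399, and 3 counts equalled 0.387 to 1.05 CPM, the counts scaled to a common library size (trimmed mean of M values). Irf5 did not fall in the libraries labelled KO. Its log2 difference from WT ran from 0.04 to 0.47 in the 7 conditions, and it was higher in 4 of them by the test used here, edgeR's quasi-likelihood test with Benjamini-Hochberg adjustment over 11624 genes and a threshold of 0.05. A count over the whole gene also holds reads from outside the floxed segment, so it does not check the deletion. Lyz2, whose locus carries Cre, was lower in all 7 conditions, by 0.51 to 1.11 on the log2 scale. The groups are therefore called libraries labelled KO and WT. Macrophage markers (Adgre1, Csf1r, Cd68, Itgam, Mertk and Fcgr1) were counted in every library, with a summed level of 4704 to 8736 CPM. Fibroblast markers (Col1a1, Col1a2, Col3a1 and Pdgfra) summed to 0 to 58.7 CPM in the libraries labelled WT and to 0 to 305 CPM in those labelled KO, over 100 CPM in 5 of the latter. Markers of other cells were low, with sums of 14.1 to 140 CPM for neutrophils and precursors, 3.05 to 12.98 CPM for B cells, and at most 1.90 CPM for T cells, 6.70 CPM for dendritic cells and 0.369 CPM for erythroid cells. Tnf, an early LPS target, rose with LPS at 2 h by 4.77 in WT and 4.65 in KO on the log2 scale, and Angptl4, a fatty acid target, rose with palmitate at 24 h by 3.20 and 3.61.

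All 9 transporters passed the filter on low counts. Per kilobase of exon, Slc43a2 was the most abundant with a mean of 112 CPM per kb over the 42 libraries, ahead of Slc3a2 at 84.9, Slc15a3 at 56.3 and Slc7a8 at 37.5 CPM per kb. Slc7a7 at 8.09 and Slc38a1 at 5.19 CPM per kb formed a middle range. Length was the union of all annotated exons of a gene, 3.315 kb for Slc7a7 and 17.2 kb for Slc38a1. Before division by length the means were 26.8 CPM for Slc7a7 and 89.5 CPM for Slc38a1, so the order of this pair depends on the length used. Slc7a5, Slc1a5 and Slc1a4 were scarce, at 1.95, 1.83 and 0.294 CPM per kb, and Slc1a4 had only 0 to 20 counts in any library. The heavy chain was thus represented by more transcript per length than any of the 3 light chains among the 9 genes, and the LAT2 light chain by more than LAT1. Between its highest and lowest group mean, Slc15a3 spanned 3.18-fold, Slc7a8 3.00-fold and Slc7a5 2.78-fold, whereas Slc3a2 spanned 1.46-fold and Slc38a1 1.51-fold.

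**Figure D1:**
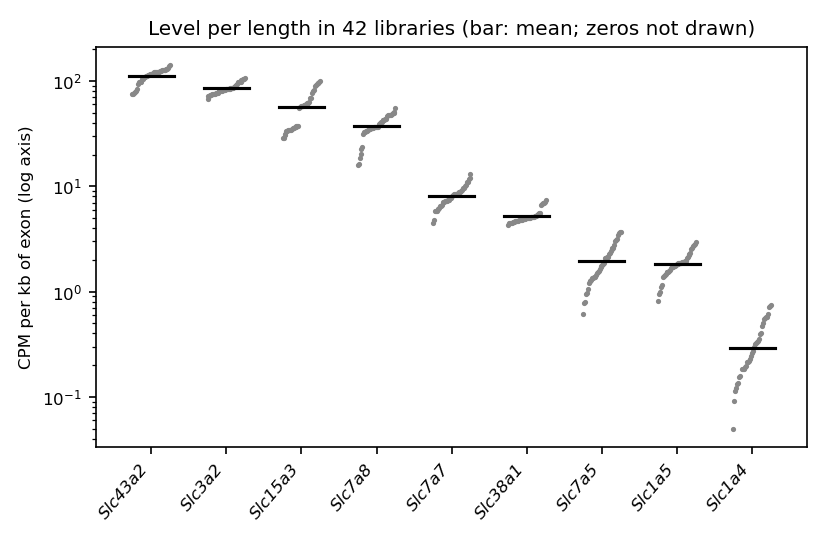
Level of each transporter in CPM per kb of exon (log axis) in the 42 libraries (grey points, ordered by value, zeros not drawn) with the mean over libraries (black bar). Slc43a2, Slc3a2, Slc15a3 and Slc7a8 lie above the other 5 genes, whose means run from 0.294 to 8.09 CPM per kb.

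The question put to the LPS comparison was which transporters the macrophages changed after a bacterial stimulus, early and late. At 2 h, 5 of the 9 rose and 1 fell in the libraries labelled WT, and the counts were also 5 and 1 in those labelled KO. Of all genes tested, 23.1% were called in WT (14% higher, 9.1% lower) and 23.9% in KO (14.7% higher, 9.16% lower). At 24 h, 5 transporters rose and 2 fell under each label, where 39.5% of genes were called in WT (19.6% higher, 19.9% lower) and 40.9% in KO (19.9% higher, 21% lower). The median log2 change of the 9 was 0.22 in WT and 0.50 in KO at 2 h, and 0.30 and 0.34 at 24 h, where the median over all genes tested was -0.01 in each. Without the 5 libraries over 100 CPM of fibroblast markers, the count in KO was 5 at 2 h and 4 at 24 h, and in WT it was 6 and 7. All 5 were labelled KO, so these KO comparisons held fewer libraries, and the share of all genes called is not given. The lost call at 2 h was Slc3a2, at 0.17 on the log2 scale (0.24 with all libraries). Those lost at 24 h were Slc7a5 at 0.78 (0.78), Slc7a7 at 0.38 (0.54) and Slc1a5 at -0.65 (-0.67). The summed macrophage markers moved with LPS at 24 h, at 7673 to 8736 CPM in the LPS 24 h libraries and 4704 to 5416 CPM in all others. Neutrophil and precursor markers were lower with LPS at 24 h, at 26.5 to 28.4 CPM against 35.5 to 43.3 CPM in WT Control and at 27.8 to 43.4 CPM against 94.9 to 125 CPM in KO Control. Dendritic cell markers in KO summed to 1.04 to 1.87 CPM with LPS and 3.96 to 6.70 CPM in Control at 24 h, and in WT the groups overlapped. The part of these markers in the changes was not tested. In bulk samples, fewer cells of a type and less RNA per cell cannot be told apart.

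**Figure D2:**
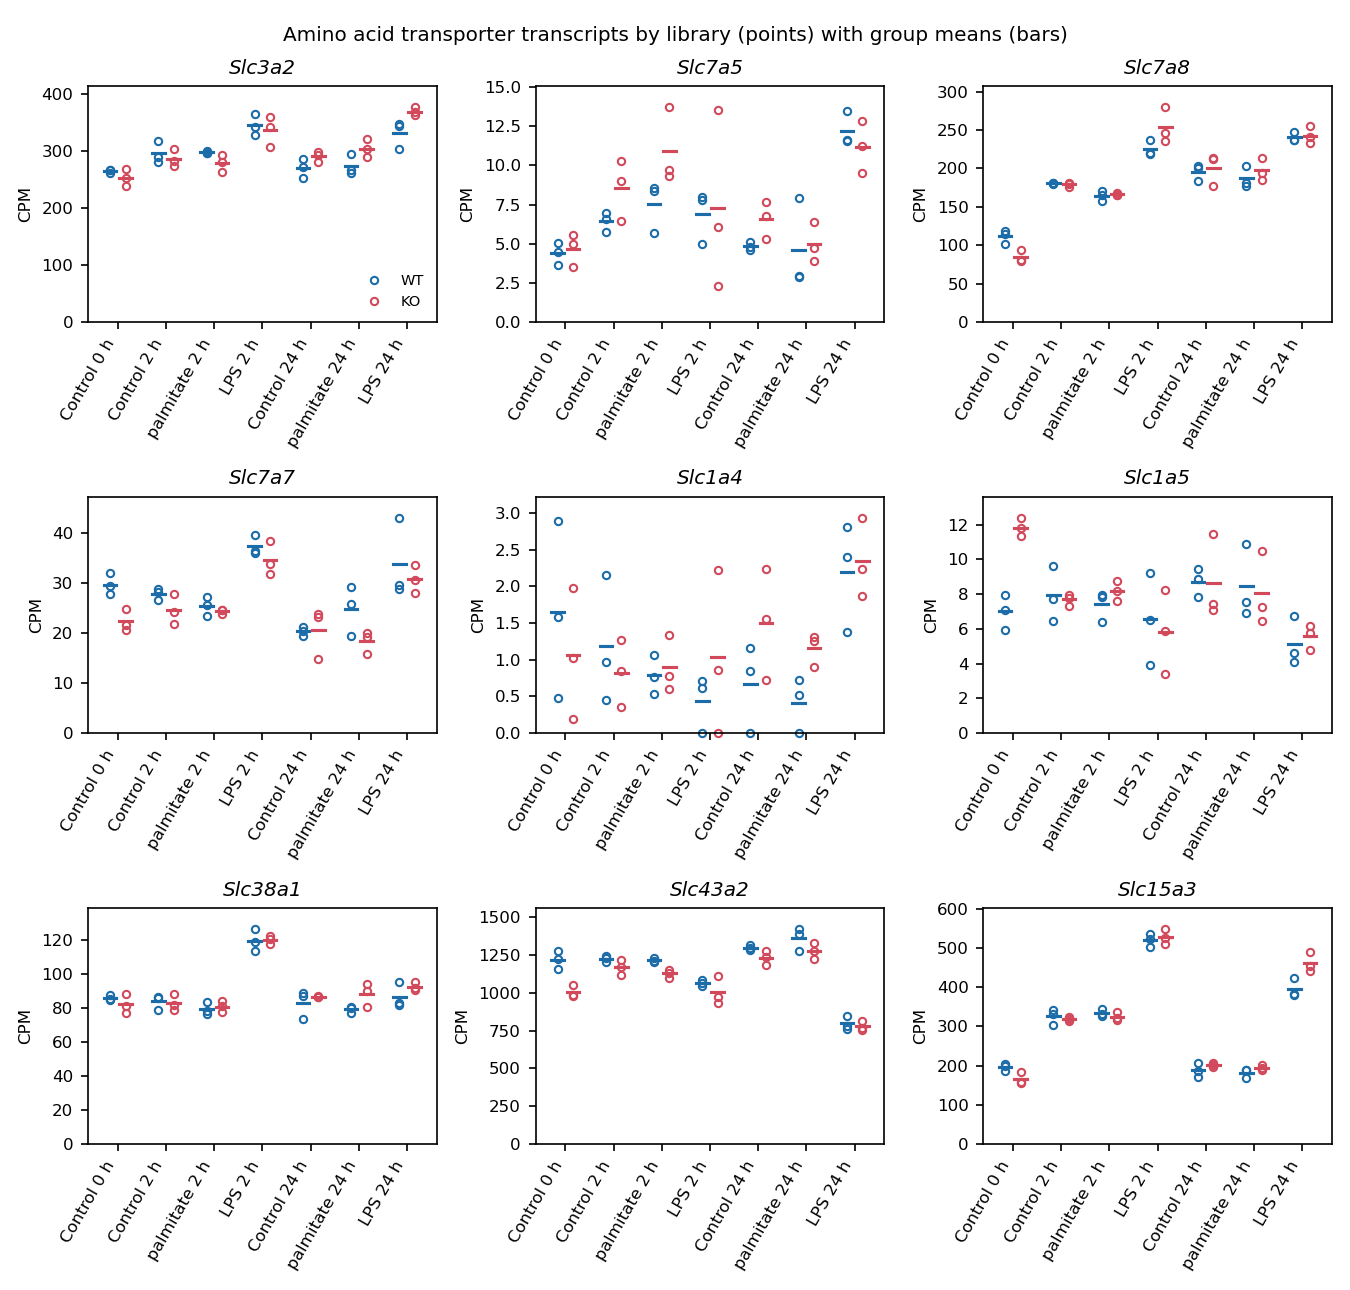
Level of each transporter in CPM (linear axes from 0) in every library, by condition, for libraries labelled WT (blue) and KO (red), with group means as bars, 3 libraries per group. By group mean, Slc15a3 and Slc38a1 peak at LPS 2 h, Slc7a5 at LPS 24 h, and Slc43a2 is lowest at LPS 24 h. In KO the Slc7a5 mean at LPS 24 h (11.2 CPM) is close to that at palmitate 2 h (10.9 CPM), and the libraries overlap.

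The lysosomal transporter Slc15a3 (ENSMUSG00000024737, chr19:10839727-10859362, plus strand, GRCm38) had the change with the smallest adjusted p of the 9 in each LPS comparison. At 2 h it stood at 330, 343 and 302 CPM in WT Control and at 503, 523 and 536 CPM in WT LPS. In the libraries labelled KO, it stood at 318, 323 and 313 CPM in Control and at 547, 524 and 509 CPM with LPS. The groups did not overlap, and the log2 change was 0.68 ± 0.06 (SE; adjusted p = 1.33e-12) in WT and 0.73 ± 0.06 (adjusted p = 1.78e-13) in KO. At 24 h its Control level was lower again, 172 to 207 CPM over both labels, while LPS libraries held 380 to 489 CPM. That was a log2 change of 1.07 ± 0.07 in WT and 1.20 ± 0.07 in KO, or 2.10-fold and 2.29-fold. The response was larger at 24 h than at 2 h by 0.43 on the log2 scale (adjusted p = 2.44e-07), although the LPS level itself was higher at 2 h. Its exons overlap those of Tmem132a on the other strand, and whether counting used the strand is not stated.

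Among the surface exchangers, the heavy chain Slc3a2 (ENSMUSG00000010095, chr19:8706882-8723369, minus strand) rose by a small amount with LPS. At 2 h it stood at 290, 316 and 281 CPM in WT Control and at 327, 365 and 341 CPM in WT LPS. The WT groups did not overlap, although the nearest libraries lay close, and the log2 change was 0.22 ± 0.07 (adjusted p = 0.00852). In KO at 2 h the change was 0.24 ± 0.07 (adjusted p = 0.00463). At 24 h the changes were 0.30 ± 0.07 in WT and 0.34 ± 0.06 in KO. In KO at 24 h the Control libraries held 281 to 297 CPM and the LPS libraries 363 to 376 CPM, with no overlap. The 2 h calls were lost on leaving out WT Control 2 h library 3 (adjusted p = 0.0814), WT LPS 2 h library 2 (0.0902), KO Control 2 h library 3 (0.058) or KO LPS 2 h library 2 (0.0655), and in KO without the 5 fibroblast-marker libraries (0.157).

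The LAT2 light chain Slc7a8 (ENSMUSG00000022180, chr14:54722209-54781946, minus strand) rose under both labels at both times. At 2 h it stood at 180, 180 and 181 CPM in WT Control and at 237, 218 and 220 CPM in WT LPS. In KO the Control libraries held 182, 176 and 180 CPM and the LPS libraries 279, 246 and 236 CPM. LPS libraries lay above Control libraries without overlap in both. The log2 changes were 0.31 ± 0.07 in WT and 0.50 ± 0.07 in KO at 2 h, and 0.30 ± 0.07 and 0.28 ± 0.07 at 24 h.

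The LAT1 light chain Slc7a5 (ENSMUSG00000040010, chr8:121881150-121907694, minus strand) rose at 24 h, from a low level. WT Control 24 h libraries held 4.77, 4.62 and 5.09 CPM, and WT LPS 24 h libraries 11.6, 11.6 and 13.5 CPM. KO Control 24 h libraries held 7.69, 5.28 and 6.79 CPM, and KO LPS 24 h libraries 12.8, 9.51 and 11.3 CPM. Every LPS library was above every Control library of its label. The log2 change was 1.33 ± 0.31 (adjusted p = 0.000446) in WT and 0.78 ± 0.30 (adjusted p = 0.0326) in KO. The KO call was lost without KO Control 24 h library 2 (adjusted p = 0.134) or 3 (0.067), without KO LPS 24 h library 1 (0.113) or 3 (0.0623), and without the fibroblast-marker libraries (0.0595). At 2 h the change was 0.15 ± 0.32 in WT and -0.12 ± 0.31 in KO, neither past the threshold, and the 3 KO LPS 2 h libraries spread from 2.27 to 13.6 CPM. The response at 24 h exceeded that at 2 h by 1.04 on the log2 scale (adjusted p = 0.00522).

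The y+LAT1 light chain Slc7a7 (ENSMUSG00000000958, chr14:54369442-54417780, minus strand) rose in all 4 LPS comparisons. At 24 h it stood at 21.3, 19.3 and 20.4 CPM in WT Control and at 29.6, 28.9 and 42.97 CPM in WT LPS, and at 14.9, 23.3 and 23.8 CPM in KO Control against 30.7, 33.6 and 28.1 CPM in KO LPS. The groups did not overlap. The log2 change was 0.42 ± 0.14 in WT and 0.50 ± 0.15 in KO at 2 h, and 0.74 ± 0.15 and 0.54 ± 0.15 at 24 h. The WT call at 2 h (adjusted p = 0.0263) was lost without WT Control 2 h library 1 (0.0582) or 3 (0.0974) or WT LPS 2 h library 1 (0.0892) or 3 (0.0569). The KO call at 2 h (adjusted p = 0.00795) was lost without KO Control 2 h library 2 (0.0691) or KO LPS 2 h library 3 (0.0772). The KO call at 24 h was lost without the fibroblast-marker libraries (0.0783). Slc7a7 exons overlap those of Oxa1l on the other strand, which was counted at a mean of 187 per library.

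For the 4 transporters called in all 4 LPS comparisons that have an entry in the RefSeq promoter table (GRCm38.p6), the upstream sequence is printed to show the letters before their starts, 5′ to 3′ on the gene's strand. Each is the part, of the 250 bases before a start, that lies outside exons of the gene and outside coding or UTR segments of others. Of the 9 genes, 5 had an entry. Capitals mark a match to 1 of 3 motifs read on both strands: TGATGCAA (the amino acid response type), GAAANNGAA (the IRF type) and GGGANNTTC (the NF-kB type). The windows, in the order printed, are chr19:8713898-8713960, chr14:54781947-54782136, chr14:54417781-54417952 (all minus strand) and chr11:75531444-75531693 (plus strand). The Slc3a2 window precedes a start inside the annotated gene.
Slc3a2: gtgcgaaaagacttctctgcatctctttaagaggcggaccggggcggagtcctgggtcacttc
Slc7a8: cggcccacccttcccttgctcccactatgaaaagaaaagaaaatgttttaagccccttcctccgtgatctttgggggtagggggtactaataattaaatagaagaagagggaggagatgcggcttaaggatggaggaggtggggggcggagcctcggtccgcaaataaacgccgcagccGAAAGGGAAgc
Slc7a7: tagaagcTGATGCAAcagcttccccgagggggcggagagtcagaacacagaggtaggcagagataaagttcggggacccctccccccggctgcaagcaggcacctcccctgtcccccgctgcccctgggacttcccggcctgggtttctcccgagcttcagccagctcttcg
Slc43a2: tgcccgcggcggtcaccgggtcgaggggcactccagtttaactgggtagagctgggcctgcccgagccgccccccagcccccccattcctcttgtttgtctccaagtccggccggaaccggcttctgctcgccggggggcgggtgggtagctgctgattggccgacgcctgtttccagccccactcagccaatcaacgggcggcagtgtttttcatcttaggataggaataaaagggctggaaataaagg

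Of 32851 windows of 250 bases in that table, 0.791% held the TGATGCAA motif, 7.13% GAAANNGAA and 3.23% GGGANNTTC. The match in Slc7a7 lies at 1 of its 5 listed starts, the one nearest the 5′ end of the annotated gene. A match is a description of letters and shows no binding.

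The glutamine carrier Slc38a1 (ENSMUSG00000023169, chr15:96571418-96642913, minus strand) rose with LPS at 2 h. At 2 h it stood at 86.2, 79.0 and 86.9 CPM in WT Control and at 114, 126 and 119 CPM in WT LPS, and in KO at 88.6, 79.0 and 81.7 CPM against 118, 121 and 122 CPM. The groups lay well apart. The log2 change was 0.52 ± 0.07 in WT (adjusted p = 1.76e-07) and 0.54 ± 0.08 in KO (adjusted p = 7.98e-08). At 24 h it was 0.05 ± 0.07 and 0.10 ± 0.07, and the response was smaller than at 2 h by 0.45 on the log2 scale (adjusted p = 1.28e-06).

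The branched-chain carrier Slc43a2 (ENSMUSG00000038178, chr11:75531694-75577575, plus strand) fell with LPS, by more at 24 h. At 24 h it stood at 1295, 1317 and 1280 CPM in WT Control and at 781, 846 and 763 CPM in WT LPS. In KO the Control libraries held 1238, 1278 and 1181 CPM and the LPS libraries 753, 810 and 769 CPM. The groups were far apart, with log2 changes of -0.70 ± 0.06 and -0.67 ± 0.06, or 0.61-fold and 0.63-fold. At 2 h the changes were -0.20 ± 0.06 and -0.22 ± 0.06, smaller than at 24 h (difference -0.47, adjusted p = 4.09e-10). An antisense gene, Gm45606, overlaps its exons.

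The ASCT2 gene Slc1a5 (ENSMUSG00000001918, chr7:16781340-16798274, plus strand) fell at 24 h. It stood at 7.85, 9.42 and 8.88 CPM in WT Control 24 h and at 4.10, 4.63 and 6.73 CPM in WT LPS 24 h, and in KO at 7.44, 7.10 and 11.5 CPM against 4.76, 5.78 and 6.14 CPM. The groups did not overlap, on 24 to 81 counts per library. The log2 change was -0.76 ± 0.26 (adjusted p = 0.0149) in WT and -0.67 ± 0.25 (adjusted p = 0.0299) in KO. The WT call was lost without WT Control 24 h library 2 (adjusted p = 0.0566) or WT LPS 24 h library 1 (0.0847) or 2 (0.0575). The KO call was lost without KO Control 24 h library 3 (adjusted p = 0.328, log2 change -0.38), KO LPS 24 h library 1 (0.12) or 2 (0.0518), without the fibroblast-marker libraries (0.103), and with no filter on low counts (0.0573). The ASCT1 gene Slc1a4 (ENSMUSG00000020142, chr11:20302180-20332713, minus strand) had log2 changes of -1.54 ± 0.94 and 0.50 ± 0.81 at 2 h and 1.67 ± 0.74 and 0.68 ± 0.65 at 24 h, none past the threshold, and the WT change at 24 h passed it without WT Control 24 h library 3 (adjusted p = 0.0398).

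With palmitate, no transporter passed the test at either time under either label. The count was 0 in each of the 4 comparisons by edgeR and 0 by DESeq2, and no transporter had an unadjusted p under 0.05. Of all genes, 0.275% were called in WT and 0.112% in KO at 2 h, and 0.852% and 0.877% at 24 h. An unadjusted p under 0.05 by edgeR was found for 866 and 536 of the 11624 genes at 2 h, and for 1049 and 928 at 24 h. The 95% intervals of the log2 change at 24 h were -0.04 to 0.18 in WT for Slc43a2, -0.19 to 0.09 for Slc15a3, -0.11 to 0.16 for Slc3a2 and -0.21 to 0.08 for Slc7a8, and -0.77 to 0.64 for the scarce Slc7a5. In KO they were -0.06 to 0.16 for Slc43a2, -0.19 to 0.08 for Slc15a3, -0.07 to 0.20 for Slc3a2, -0.16 to 0.13 for Slc7a8 and -1.03 to 0.29 for Slc7a5. Slc7a7 had wider intervals, -0.01 to 0.60 in WT (log2 change 0.29, unadjusted p = 0.059 and adjusted p = 0.576 by edgeR) and -0.50 to 0.12 in KO. At 2 h Slc7a8 in WT had an interval of -0.28 to 0.01 (adjusted p = 0.705). Of the related genes listed below, Slc16a10, a transporter of aromatic amino acids, rose with palmitate at 24 h by 0.41 ± 0.08 in WT (adjusted p = 0.00131) and 0.43 ± 0.08 in KO (adjusted p = 0.000522), and Glul, glutamine synthetase, by 0.92 ± 0.07 and 0.94 ± 0.07.

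**Figure D3:**
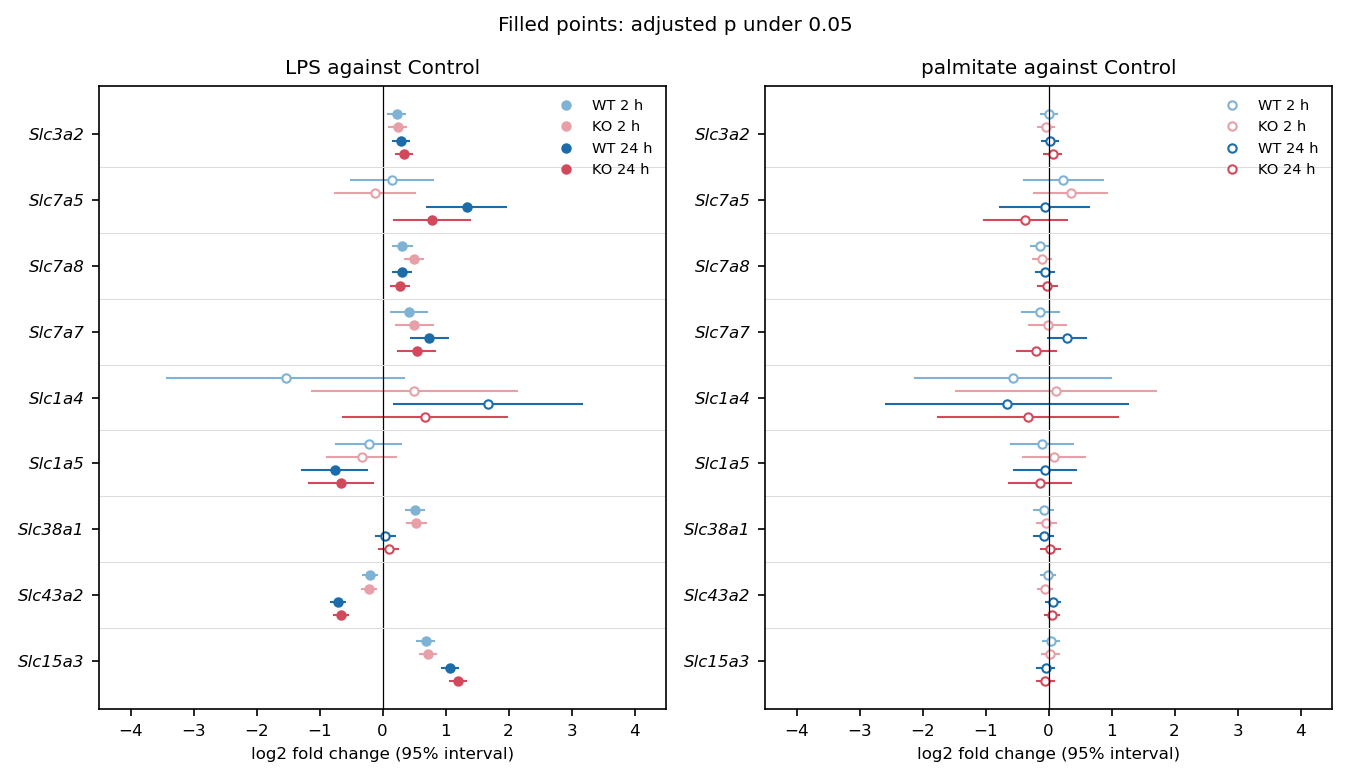
Log2 fold change of each transporter with its 95% interval for LPS (left) and palmitate (right) against the Control of the same time and label, with 2 h in pale and 24 h in dark colours, WT blue and KO red, and filled points for an adjusted p under 0.05. All palmitate points are open, while Slc15a3 reaches 1.20 with LPS at 24 h and Slc43a2 -0.70.

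Set directly against palmitate over both labels (6 libraries against 6), LPS gave 6 calls of 9 at 2 h, where 35% of genes were called, and 8 of 9 at 24 h, where 51.8% were. At 24 h the log2 differences were 1.18 ± 0.05 for Slc15a3, 1.27 ± 0.22 for Slc7a5, 0.59 ± 0.10 for Slc7a7, -0.74 ± 0.04 for Slc43a2 and -0.61 ± 0.18 for Slc1a5. Slc1a4 was also called, at 1.67 ± 0.52 (adjusted p = 0.00569), with 9 to 20 counts in the LPS libraries and 0 to 9 in the palmitate libraries. Slc7a5 at 2 h, at -0.28 ± 0.22, passed the threshold without KO LPS 2 h library 2 (-0.67, adjusted p = 0.0165). Slc38a1 at 24 h was not called (0.10 ± 0.05, adjusted p = 0.115). Over all genes, 46.3% had an LPS response that differed between 24 h and 2 h, and 4 of the 9 transporters did: Slc7a5 and Slc15a3 upward, and Slc38a1 and Slc43a2 downward. Slc1a4, at 1.69 ± 0.80 (adjusted p = 0.078), passed that test without WT Control 2 h library 3 (0.0479), WT Control 24 h library 3 (0.0397) or KO LPS 2 h library 2 (0.0286).

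The genotype comparison asked whether the Irf5 label changed these transcripts. At Control 0 h, 4 of the 9 were called, with 12.5% of all genes. Slc1a5 was higher in the libraries labelled KO and Slc7a8, Slc43a2 and Slc15a3 were lower. Slc1a5 stood at 7.95, 7.10 and 5.95 CPM in WT and at 12.4, 11.8 and 11.3 CPM in KO, with no overlap, a log2 difference of 0.76 ± 0.24 (adjusted p = 0.0267). Slc7a8 stood at 102, 119 and 114 CPM in WT and at 80.6, 93.2 and 80.0 CPM in KO, also with no overlap (-0.40 ± 0.08, adjusted p = 0.000332). Slc43a2 differed by -0.28 ± 0.06 (adjusted p = 0.000462), from 1156 to 1273 CPM in WT to 979 to 1051 CPM in KO, and Slc15a3 by -0.24 ± 0.07 (adjusted p = 0.0142), from 185 to 204 CPM to 156 to 183 CPM. Neither pair of groups overlapped. The Slc1a5 call was lost without WT Control 0 h library 2 (adjusted p = 0.0611) or 3 (0.136) or KO Control 0 h library 1 (0.0778) or 3 (0.0581). The Slc15a3 call was lost without WT Control 0 h library 1 (adjusted p = 0.0739) or KO Control 0 h library 1 (0.107) or 3 (0.123). Slc7a7, at -0.41 ± 0.14, missed the threshold (adjusted p = 0.0539) and passed it without KO Control 0 h library 2 (0.0497).

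At Control 0 h, markers of other cells moved with the label. The summed fibroblast markers were 0.529 to 0.904 CPM in WT and 41.9 to 69.2 CPM in KO, and those of neutrophils and their precursors (Ly6g, S100a8, S100a9, Mpo, Elane and Ngp) 32.5 to 41.5 and 46.5 to 59.2 CPM, with Ly6g at 0 in 40 of 42 libraries. B cell markers went the other way, at 8.19 to 12.8 CPM in WT and 3.05 to 7.01 CPM in KO. Of the macrophage markers, Cd68 (-0.47), Adgre1 (-0.31) and Mertk (-0.24) were lower under the KO label and Csf1r (0.28) higher. Their part in the differences was not tested. At Control 2 h the fibroblast sums were 1.16 to 58.7 CPM in WT and 72.2 to 118 CPM in KO. No transporter was called there, where 0.49% of all genes were, and the part of the markers was not tested there either.

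In the other 6 conditions, edgeR called 0 of the 9 between labels. The genes called in all were 0.49% at Control 2 h, 0.146% at palmitate 2 h, 0.465% at LPS 2 h, 0.12% at Control 24 h, 0.0688% at palmitate 24 h and 0.146% at LPS 24 h. Unadjusted p by edgeR lay under 0.05 for 0, 0, 1, 0, 3 and 2 transporters in that order. Of the 11624 genes tested, 1172, 1032, 1342, 587, 891 and 1055 had such a p, in the same order. DESeq2 called Slc15a3 at LPS 24 h (adjusted p = 0.0432), where edgeR gave 0.22 ± 0.06 (adjusted p = 0.173). None of the 4 interactions of label and treatment was called for any of the 9, by edgeR or DESeq2. Over all genes 0% were called for LPS at 2 h, 0.0086% for LPS at 24 h, and 0% for palmitate at 2 h and at 24 h. The number of the 9 with an unadjusted p under 0.05 by edgeR was 0, 0, 0 and 1, and of the 11624 genes 810, 625, 486 and 411. The interaction at 24 h with LPS for Slc7a5 was -0.55, with an interval of -1.43 to 0.32, so the smaller change under the KO label was not shown to differ from that in WT.

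Whether the difference at 0 h itself differed from that at later Control times was tested after the data were seen. Slc7a8 was called in both contrasts. The log2 difference of KO from WT was -0.40 at 0 h, -0.01 at 2 h and 0.04 at 24 h, a signed change of 0.39 ± 0.11 from 0 h to 2 h (adjusted p = 0.021) and of 0.44 ± 0.11 from 0 h to 24 h (adjusted p = 0.0182). Of all genes 4.77% and 1.83% were called. The 2 h call was lost without WT Control 0 h library 2 (adjusted p = 0.0631) or 3 (0.0544), KO Control 0 h library 1 (0.0762) or 3 (0.0879) or KO Control 2 h library 1 (0.0505). The 24 h call of Slc7a8 was lost without WT Control 0 h library 2 (0.065) or 3 (0.0512), KO Control 0 h library 1 (0.0982) or 3 (0.115), WT Control 24 h library 3 (0.0935) or KO Control 24 h library 1 (0.0907) or 2 (0.106). Without the fibroblast-marker libraries the change was 0.38 at 2 h (adjusted p = 0.0543) and 0.40 at 24 h (0.0874). Of the libraries in these contrasts, that left out KO Control 2 h library 1 and KO Control 24 h library 1. The other 8 were not called. Slc15a3 at 24 h, at 0.33 ± 0.10, had an adjusted p of 0.0548 and passed the threshold with DESeq2 (0.0233), without KO Control 0 h library 2 (0.0119) and without WT Control 24 h library 2 (0.0334).

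**Figure D4:**
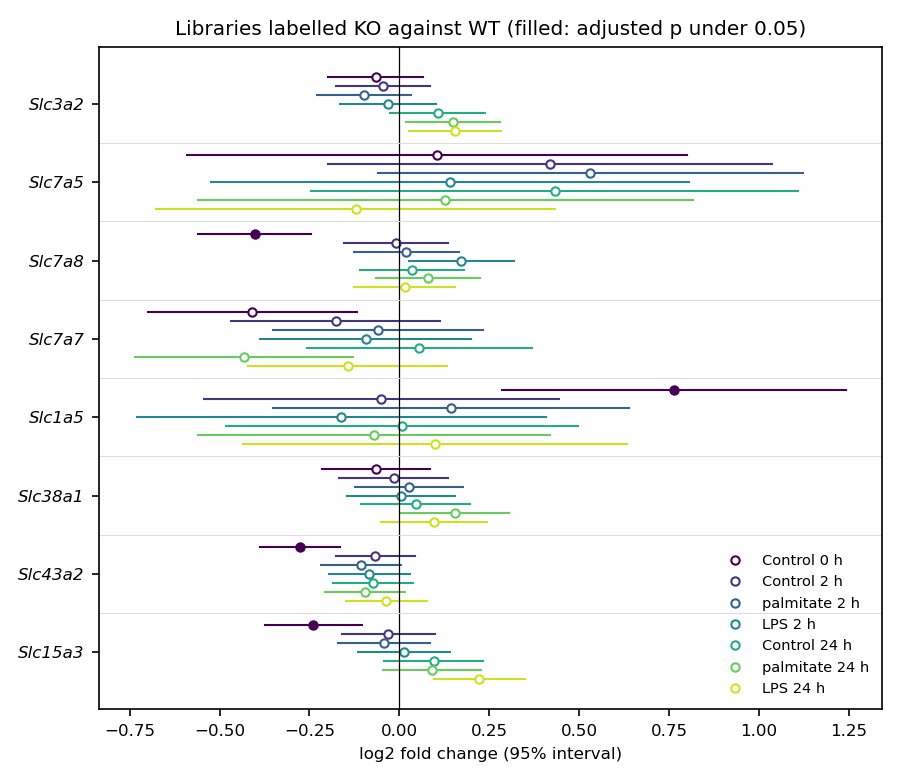
Log2 fold change, with its 95% interval, of libraries labelled KO against WT in each of the 7 conditions, for the 8 transporters other than Slc1a4. The 4 filled points (adjusted p under 0.05) all belong to Control 0 h, for Slc7a8, Slc1a5, Slc43a2 and Slc15a3.

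Several of the transcripts also changed with time in Control, which is why each treatment was set against the Control of its own time. At 2 h against 0 h over both labels, 5 of 9 rose, with 16.7% of all genes called: Slc7a8 by 0.89 ± 0.05, Slc15a3 by 0.84 ± 0.05, Slc7a5 by 0.70 ± 0.23, Slc3a2 by 0.17 ± 0.05 and Slc43a2 by 0.11 ± 0.04. By label, mean Slc43a2 was 1217 CPM at 0 h and 1224 CPM at 2 h in WT, and 1006 and 1168 CPM in KO. Its means at 24 h were 1297 CPM in WT and 1232 CPM in KO. Time in Control was not tested within each label. At 24 h against 0 h, 2 of the 9 rose and 1 fell, with 16.5% of genes called. Slc7a8 was higher by 1.02 ± 0.05 and Slc43a2 by 0.19 ± 0.04, while Slc15a3 stood at 0.11 ± 0.05 (adjusted p = 0.111) and Slc7a7 was lower by 0.32 on the log2 scale (SE 0.11, adjusted p = 0.0302). By label, mean Slc7a7 was 29.7 CPM at 0 h and 20.3 CPM at 24 h in WT, with no overlap of libraries. In KO the means were 22.3 and 20.6 CPM, and the libraries overlapped. In 3 of these 8 calls, leaving out a single library could end the call, and in the other 5 none of the 12 did. Slc7a5 at 2 h (adjusted p = 0.0262) was lost without WT Control 0 h library 2 (0.067), KO Control 0 h library 1 (0.0753), WT Control 2 h library 2 (0.0594) or KO Control 2 h library 1 (0.0748). Slc43a2 at 2 h (0.0389) was lost with no filter on low counts (0.0865) and without 8 of the 12 libraries in turn (0.0564 to 0.127), which were WT Control 0 h libraries 1 and 3, KO Control 0 h libraries 1 and 3, WT Control 2 h libraries 1 and 3 and KO Control 2 h libraries 2 and 3. Slc7a7 at 24 h was lost without WT Control 0 h library 2 (0.0742), KO Control 0 h library 2 (0.102), WT Control 24 h library 2 (0.0783) or 3 (0.0634) or KO Control 24 h library 1 (0.135), and without the fibroblast-marker libraries (0.143). At 24 h Slc15a3 passed the threshold without KO Control 0 h library 2 (0.0221) or WT Control 24 h library 3 (0.0285), and Slc3a2, at 0.11 ± 0.05, without KO Control 0 h library 3 (0.0422) or WT Control 24 h library 3 (0.0421).

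The genes whose group means followed each transporter most closely over the 14 groups (Pearson r of log2 CPM, given as a description) were Cd86 (0.98) and Arid5a (0.98) for Slc15a3, Ccl3 (0.98) and Mark2 (0.97) for Slc38a1, Adam10 (0.98) and Pdlim4 (0.97) for Slc43a2, Rgl1 (0.95) and Rap1b (0.94) for Slc7a7, Csf2rb2 (0.94) and Myh9 (0.90) for Slc7a8, and Ccdc86 (0.93) and Traf2 (0.93) for Slc3a2. For the scarce genes they were Mapkapk5 (0.91) and Grk2 (0.88) for Slc7a5, Nsmce4a (0.92) and 9430091E24Rik (0.91) for Slc1a5 and Gdap2 (0.88) and Taf6l (0.88) for Slc1a4. Among the 9 themselves, Slc3a2 and Slc15a3 had the highest r (0.84) and Slc3a2 and Slc1a5 the lowest (-0.84). The 14 means share libraries' depth and treatment, and no p is given.

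Related genes gave the context, and their counts are read against the shares of all genes called with LPS, 23.1% in WT and 23.9% in KO at 2 h and 39.5% and 40.9% at 24 h. The lists were also chosen with earlier results of these data known. Of 24 other plasma membrane amino acid transporters, 11 passed the filter. With LPS at 2 h, 4 rose and 0 fell in WT, and 5 and 0 in KO, or 36.4% and 45.5% of the 11, with the list median at 0.34 and 0.24. At 24 h, 5 rose and 1 fell under each label (54.5%). The cationic amino acid carrier Slc7a2 rose by 2.34 ± 0.19 in WT and 2.86 ± 0.18 in KO at 2 h and by 3.35 ± 0.18 and 3.602 ± 0.18 at 24 h. The cystine-glutamate exchanger Slc7a11 rose by 1.71 ± 0.14 and 2.05 ± 0.15 at 2 h and Slc16a10 by 1.08 ± 0.07 and 1.23 ± 0.07. At 24 h the arginine carrier Slc7a1 rose by 1.15 ± 0.15 and 1.33 ± 0.15 and the betaine carrier Slc6a12 by 1.96 ± 0.26 and 2.24 ± 0.26, and the taurine carrier Slc6a6 fell by 0.48 in WT (SE 0.04) and by 0.38 in KO (SE 0.04).

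Of 9 lysosomal amino acid and peptide transporters, 8 were in the table and 7 were tested. At 2 h with LPS, 0 rose and 3 fell under each label, and at 24 h 3 rose and 1 fell in WT and 2 rose and 1 fell in KO. These were 42.9% of the 7 at 2 h, and 57.1% in WT and 42.9% in KO at 24 h, the last close to the share of all genes. The proton-coupled amino acid carrier Slc36a1 was lower at 2 h (-0.62 ± 0.11 in WT and -0.40 ± 0.11 in KO) and higher at 24 h (0.39 ± 0.10 in both). Cystinosin, Ctns, was lower at 2 h by -0.39 ± 0.15 and -0.72 ± 0.15, with the WT value barely past the threshold (adjusted p = 0.0496). At 24 h Slc38a7 was higher (0.49 ± 0.10 and 0.54 ± 0.10) and Slc36a4 lower (-0.24 ± 0.08 and -0.35 ± 0.08). Slc15a3, the member of the transporter set that sits in that compartment, was higher with LPS at both times.

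Of 18 amino acid response genes (targets or partners of ATF4), 17 were tested. At 2 h with LPS, 3 rose and 2 fell in WT (29.4% of the 17), and 5 and 2 in KO (41.2%). At 24 h, 12 rose and 0 fell under each label (70.6%), with list medians of 0.84 in WT and 1.09 in KO. Nupr1, a stress-response cofactor, rose by 3.87 ± 0.15 and 3.53 ± 0.15 at 2 h, Cebpb by 0.80 ± 0.09 and 1.04 ± 0.09 and Atf4 by 0.64 ± 0.08 and 0.67 ± 0.08, while Ddit3 changed by -0.75 ± 0.15 and -0.91 ± 0.16 and Sesn2 by -0.998 ± 0.14 and -0.47 ± 0.14. At 24 h Mthfd2, of mitochondrial one-carbon metabolism, rose by 1.85 ± 0.11 and 2.16 ± 0.11, Aars, the alanyl-tRNA synthetase, by 1.09 ± 0.07 and 1.07 ± 0.07, and Nupr1 by 3.34 ± 0.16 and 3.94 ± 0.16.

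Of 10 enzymes of branched-chain amino acid, glutamine and glutamate metabolism, 9 were tested. At 2 h with LPS, 1 rose and 1 fell under each label (22.2% of the 9, near the share of all genes), and the lower one was Glul, at -0.21 ± 0.07 and -0.24 ± 0.08. At 24 h, 2 rose and 3 fell under each label (55.6%). Bcat2, the mitochondrial branched-chain aminotransferase, rose by 0.86 ± 0.13 and 0.67 ± 0.13, and Got1 by 0.61 ± 0.12 and 0.56 ± 0.12, while Glul changed by -0.36 ± 0.07 and -0.56 ± 0.07 and Glud1, glutamate dehydrogenase, by -0.25 ± 0.06 and -0.33 ± 0.06. At Control 0 h, 4 of the 11 other surface transporters tested (36.4%) were higher under the KO label and 0 lower, where 12.5% of all genes were called in either direction. They were Slc6a12 (2.88 ± 0.27), the glutamine carrier Slc38a2 (0.84 ± 0.12), Slc7a11 (0.63 ± 0.15) and Slc7a6 (0.65 ± 0.21).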

How the data were processed

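RNA-seq libraries of BMDM in 14 groups of 3 were analysed. The authors aligned paired reads to mm10 with STAR 2.7.3a (fastp 0.19.11 is also listed in the submitters' processing notes) and deposited the unnormalised counts of each gene, so close paralogs and genes overlapping on either strand are uncertain. The annotation release and the strand setting are not given in the sources used here. Each column names a group and no replicate, so library numbers follow column order and pair nothing. None of the 42 pairs of libraries within groups matched within sampling noise (chi-square per degree of freedom 1.93 to 9.32).

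In R 4.3.3, genes kept by filterByExpr (11624) were scaled by TMM and fitted in edgeR 4.0.16 with 1 mean per group over 42 libraries. Contrasts used the quasi-likelihood F test, with Benjamini-Hochberg adjustment and a threshold of 0.05. Each SE was obtained by dividing the log2 change by the root of its F statistic. CPM levels were scaled by TMM, and positions and exon lengths come from the GENCODE annotation of GRCm38. The test was checked on simulated data. Intervals cover the spread between libraries, and floors of 3 counts cover counting error only.

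The members and lists were chosen with earlier results of these data known. Named beside the members were, per list, time and direction, up to 3 genes called alike under both labels with the smallest adjusted p, the 2 genes with the highest correlation to each member, and label checks. List genes named at Control 0 h and with palmitate were chosen after their values were seen. Alternatives were RLE scaling, no filter, only the libraries compared, DESeq2 1.42.0, and leaving out each library, and, chosen after seeing the data, leaving out the 5 libraries over 100 CPM of fibroblast markers. Protein sequences were not used here. The values of 1 listed enzyme are not reported here.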

Additional observations from a re-analysis of the deposited data

Results flagged for a closer look

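The change with LPS at 24 h differed from that at 2 h, by a test of the difference over both labels, for 4 transporters, with log2 differences of 1.04 for Slc7a5, 0.43 for Slc15a3, -0.45 for Slc38a1 and -0.47 for Slc43a2. These are 4 of 9, where 46.3% of all genes were called in the same contrast. The difference between libraries labelled KO and WT changed from Control 0 h to later Control times for Slc7a8, by 0.39 at 2 h and 0.44 at 24 h on the log2 scale, from a lower level under the KO label at 0 h to a difference near 0. That contrast was added after the data were seen, and both calls were lost on leaving out any of several single libraries.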

How the results depend on the processing

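No paired analysis was possible because the columns carry the group name and no replicate number. With RLE scaling, no filter on low counts, only the libraries compared, or DESeq2, the counts of transporters called stayed within 1.5 times those reported in every family of comparisons, and no call changed direction. Leaving out 1 library at a time, the number of calls summed over the comparisons of a family ran from 24 to 27 for LPS against Control (26 with all libraries), 2 to 5 for KO against WT (4), 6 to 9 for time in Control (8), 14 to 15 for LPS against palmitate (14), 4 to 5 for the LPS response at 24 h against 2 h (4), and 0 to 3 for KO against WT between Control times (2), and stayed at 0 for palmitate and for the interactions. Calls of listed genes with LPS ran from 80 to 85 (84). Without the 5 libraries over 100 CPM of fibroblast markers, calls fell from 2 to 0 for KO against WT between Control times. The cause was not tested. The Slc7a8 changes were 0.38 at 2 h and 0.40 at 24 h without those libraries, and 0.39 and 0.44 with all. With only the libraries compared, Slc1a4 did not pass the filter for LPS at 24 h in WT and gave no value. Depth limits Slc1a4, Slc1a5 and Slc7a5 most, at 0 to 20, 9 to 81 and 6 to 91 counts per library.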
